A study of Mus musculus with 9 samples.

Results

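The comparison of the Ago2 RNA-IP with Input took in every small RNA listed in the Ago2 table, without selection on any measured value. These were 1825 of the 2049 small RNAs that the 2 tables of the series hold together, namely 548 mature miRNAs, 519 entries of the snoRNA class, 453 piRNA entries, 221 tRNAs and 84 rRNAs. In an RNA-IP, a protein is pulled out of a cell extract with an antibody and the RNA held by it is purified and sequenced. Here the antibody was the monoclonal 2D4 against mouse Ago2, and Input is RNA of the extract before the antibody. Each group had 3 libraries, so 6 of the 9 libraries of the series entered, and the cells were unmodified and untreated as far as the labels say. The labels give the cell type as RAW 264.7, a macrophage-like line of mouse, and the study names the same line for this sequencing. The source field of the labels reads mouse stem cell, however, and the design text names P19, an embryonal carcinoma line. None of the 9 libraries came from beads alone or a control antibody, so RNAs that stick to any pull-down cannot be told apart from those bound to Ago2.

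The table holds 1 signal per RNA for each group, the authors' mean over its 3 libraries. There was thus no spread between libraries, no SD and no test, and every difference below is a description of 2 pooled values. The deposited values under 2 were all sums of whole multiples of 3 steps (100% of 364 values in the Ago2 RNA-IP and 100% of 366 in Input, within 0.0005), each step being what 1 read of 1 library adds to the mean. On these steps a signal of 20 stands for about 78.5 reads over the 3 Ago2 RNA-IP libraries and about 51.9 reads over the 3 Input libraries. They also gave a 95% interval for each log2 ratio, called the counting interval here. It covers counting error only, since reads copied by PCR are not independent molecules and the spread between libraries is unknown. It spans 0.52 on either side of the ratio for an RNA at a signal of 20 in both groups and 0.07 for an RNA at 1000.

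Argonaute proteins hold a small RNA and use it as a guide to find messenger RNAs. In mammals the guide is nearly always a miRNA of about the length that the enzyme Dicer leaves. Of the 2 strands that come from the arms of a miRNA hairpin, 5p and 3p, usually only one is kept in the protein. The seed, bases 2 to 8 of the guide, sets most of its pairing with targets, and miRNAs that share a seed form a family. Transfer RNAs, ribosomal RNAs, spliceosomal RNAs and snoRNAs belong to other protein complexes, and their signal is given beside that of the miRNAs.

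The marker miRNAs of cell types were read first. All 9 members of the macrophage and myeloid list were in the table, and together they took 6.32% of miRNA signal in the Ago2 RNA-IP and 6.07% in Input, most of it from miR-21a-5p. Of 21 markers of pluripotent stem cells, 17 arms of miR-290 to miR-295 and 4 of the miR-302 cluster, only miR-302d-3p was listed, with 0.931 in the Ago2 RNA-IP and 0 in Input. Neuronal, muscle and epithelial markers together stayed under 0.04% of the miRNA signal in each group, and the liver marker miR-122-5p was not listed. The table thus listed every macrophage and myeloid marker looked up and 1 of the 21 stem cell markers. It also listed 3 of 3 muscle, 5 of 6 epithelial and 2 of 3 neuronal markers, so being listed alone separates little. A mean signal of both groups of at least 20 was reached by 8 macrophage and myeloid, 3 epithelial, 2 neuronal, 0 muscle and 0 stem cell markers.

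Mature sequences were found in RefSeq (mouse GRCm38.p6) for 470 of the 548 miRNAs, and these are shown, in the 5′ to 3′ direction with the seed in capitals, where the results turn on them. The first set holds the most abundant miRNAs and the relatives that share their seeds. The 5 let-7 miRNAs differ only outside the seed, miR-92a-3p, miR-92b-3p and miR-25-3p share another, and miR-221-3p shares its seed with miR-222-3p and miR-181a-5p with miR-181c-5p.
let-7c-5p: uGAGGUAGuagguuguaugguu
let-7i-5p: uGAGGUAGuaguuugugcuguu
let-7f-5p: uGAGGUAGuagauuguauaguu
let-7a-5p: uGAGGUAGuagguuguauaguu
let-7b-5p: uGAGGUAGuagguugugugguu
miR-92a-3p: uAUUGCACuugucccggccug
miR-92b-3p: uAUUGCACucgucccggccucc
miR-25-3p: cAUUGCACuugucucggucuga
miR-221-3p: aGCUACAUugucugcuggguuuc
miR-222-3p: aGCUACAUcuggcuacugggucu
miR-181a-5p: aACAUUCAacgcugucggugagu
miR-181c-5p: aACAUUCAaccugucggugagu

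The second set holds other miRNAs at the ends of the range of ratios. The first 5 stood far above Input and miR-2137 far below. The last 12 are the arm pairs of the 6 hairpins whose arms parted most among those with both arms at a mean of 20 or more, with the arm of the higher ratio before its partner.
miR-5121: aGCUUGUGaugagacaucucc
miR-101a-3p: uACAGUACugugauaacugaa
miR-1843a-5p: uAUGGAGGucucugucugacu
miR-1843b-5p: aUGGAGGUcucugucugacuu
miR-182-5p: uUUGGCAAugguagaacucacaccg
miR-2137: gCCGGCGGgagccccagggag
miR-27a-3p: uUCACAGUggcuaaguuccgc
miR-27a-5p: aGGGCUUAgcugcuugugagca
miR-326-3p: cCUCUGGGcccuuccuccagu
miR-326-5p: gGGGGCAGggccuuugugaaggcg
miR-23a-3p: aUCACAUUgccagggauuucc
miR-23a-5p: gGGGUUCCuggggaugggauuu
miR-29b-3p: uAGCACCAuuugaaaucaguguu
miR-29b-1-5p: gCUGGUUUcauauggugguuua
miR-92a-3p: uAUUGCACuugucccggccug
miR-92a-1-5p: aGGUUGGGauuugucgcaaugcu
miR-25-3p: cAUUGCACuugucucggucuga
miR-25-5p: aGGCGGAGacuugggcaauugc

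The Ago2 RNA-IP consisted almost wholly of miRNAs. Mature miRNAs made up 97.9% of its signal, against 84.6% in Input. The tRNA, rRNA and piRNA classes held far less of the Ago2 RNA-IP than of Input. tRNAs held 0.282% of the signal in the Ago2 RNA-IP and 6.11% in Input, rRNAs 0.0141% in the Ago2 RNA-IP and 0.723% in Input, and piRNA entries 0.449% in the Ago2 RNA-IP and 7.37% in Input. The snoRNA class took nearly the same share in the Ago2 RNA-IP (1.36%) as in Input (1.25%). Among the 100 RNAs with the highest signal, 85 were miRNAs in the Ago2 RNA-IP and 57 in Input, whereas tRNAs held 0 places in the Ago2 RNA-IP and 24 in Input. The tRNA with the highest signal ranked 122nd in the Ago2 RNA-IP and 38th in Input. The Ago2 RNA-IP was also the more concentrated profile, since 30 RNAs made up 90% of its signal and 63 RNAs made up 90% of Input.

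**Figure D1:**
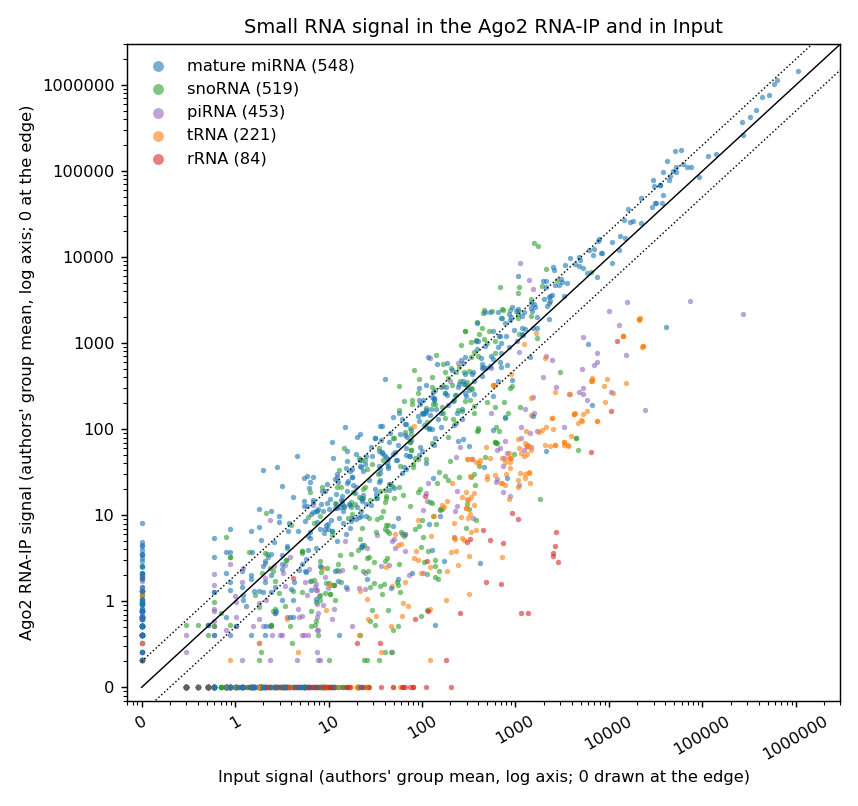
Signal of each of the 1825 small RNAs in the Ago2 RNA-IP (vertical, log axis) against Input (horizontal, log axis), each point being 1 RNA at the authors' group means, coloured by class. The solid line marks equal signal and the dotted lines 2-fold above and below, and RNAs at 0 are drawn at the edge (520 in the Ago2 RNA-IP, 173 in Input). Mature miRNAs follow the solid line over the whole range, while tRNAs and rRNAs lie below it.

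Ratios were next compared RNA by RNA, over the 781 RNAs with a mean of both groups of at least 20. A log2 ratio is always that of the Ago2 RNA-IP over Input, and an RNA is called above or below Input when it is at least 2-fold so. Of all 781 RNAs, 130 were above Input (16.6%) and 385 below it (49.3%). Mature miRNAs had 72 of 302 above and 34 below, the snoRNA class 52 of 211 above and 99 below, and piRNA entries 6 of 78 above and 68 below. No tRNA was above, and 150 of 156 were below. All 34 rRNAs were below. The median log2 ratio was 0.49 for mature miRNAs (95% interval from the order of the values 0.39 to 0.59), -0.88 for the snoRNA class (-1.26 to -0.14), -3.51 for piRNA entries (-3.98 to -3.25), -4.64 for tRNAs (-4.80 to -4.37) and -8.78 for rRNAs (-10.6 to -6.90), which treats RNAs as independent.

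The scale decides where 0 lies, but not the order of the classes. The column of the Ago2 RNA-IP summed to 9809388 and that of Input to 7299085, a log2 ratio of 0.43, and every log2 ratio of shares is lower than that of the signals by this amount. As shares of the column sums, 67 of the 781 RNAs were 2-fold above Input (8.58%) and 416 below (53.3%), and the mature miRNAs had 31 above and 51 below. The median miRNA then stood at 0.067, so that its share was close to that in Input. The 46 miRNAs with a mean signal of 10000 or more held 94.5% of the signal in the Ago2 RNA-IP and 81.5% in Input. Of these, 11 were 2-fold above Input on the signal scale and 1 below, with a median log2 ratio of 0.65. Among those between 20 and 100, 20 of 93 were above and 17 below, with a median of 0.13.

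**Figure D2:**
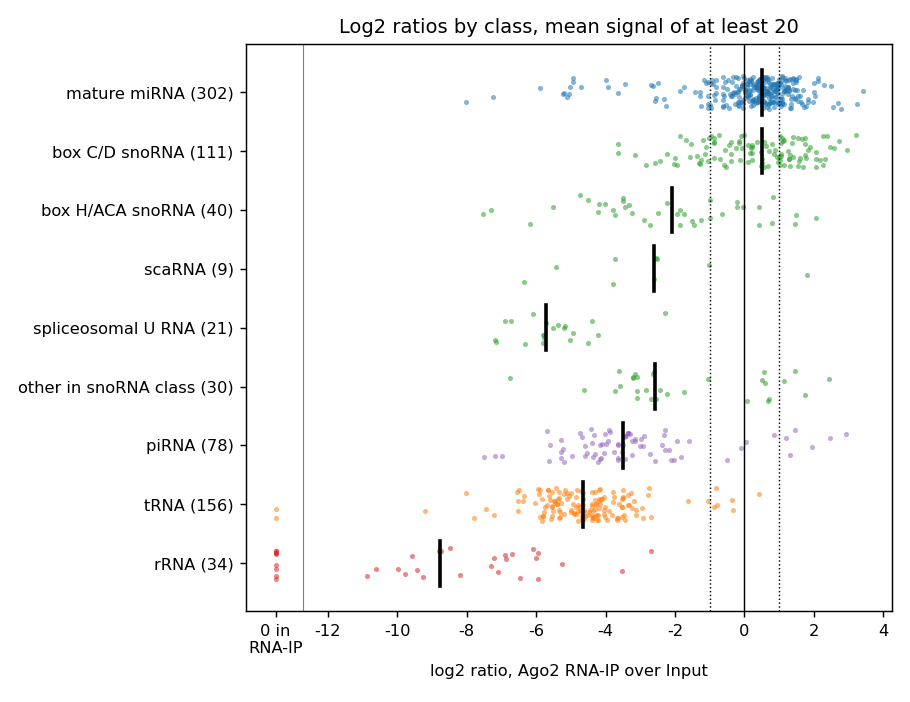
Log2 ratio of the Ago2 RNA-IP over Input (horizontal) for the 781 RNAs with a mean signal of at least 20, in rows by class with the number of RNAs in brackets. Each point is 1 RNA, the thick bar is the median of its row, the dotted lines are 2-fold, and RNAs at 0 in the Ago2 RNA-IP stand at the far left. Box C/D snoRNAs are those with names that begin with SNORD. The medians of mature miRNAs and box C/D snoRNAs lie above 0 (0.49 and 0.50) and those of tRNAs and rRNAs far below it (-4.64 and -8.78).

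The most abundant miRNAs were largely the same in the Ago2 RNA-IP as in Input. The 7 highest RNAs kept their order, and over the 302 miRNAs at a mean of 20 or more the 2 signals had a Spearman rho of 0.91, a description of pooled values that share the wide range of miRNA abundance. let-7c-5p, of the let-7 family that represses growth and developmental timing genes, had a signal of 1456010 in the Ago2 RNA-IP and 1044580 in Input (14.8% and 14.3% of the column sums). miR-92a-3p, from the Mir17hg host transcript on chromosome 14 and a further copy on the X chromosome, had 1134460 in the Ago2 RNA-IP and 628142 in Input. It made the largest gain in share of any miRNA, 2.96 percentage points, followed by let-7i-5p with 2.55 points (1036290 in the Ago2 RNA-IP, 584611 in Input). let-7f-5p had 725512 in the Ago2 RNA-IP and 437044 in Input, a gain of 1.41 points.

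Of the miRNAs with a mean of 10000 or more, 3 were 2-fold above Input on the scale of shares as well. These were miR-182-5p (log2 1.34), miR-25-3p (1.22) and miR-181a-5p (1.14). miR-182-5p, of the cluster of miR-183 and miR-96 that is best known from sensory cells, had 172937 in the Ago2 RNA-IP and 50928 in Input, a log2 ratio of 1.76 (counting interval 1.76 to 1.77). It ranked 11th in the Ago2 RNA-IP and 21st in Input. miR-181a-5p, which tunes antigen receptor signalling in lymphocytes, had 176336 in the Ago2 RNA-IP and 59365.8 in Input, a log2 ratio of 1.57, and ranked 10th in the Ago2 RNA-IP and 18th in Input. The differences of miR-182-5p and miR-181a-5p were many times wider than the counting interval, which leaves out the spread between libraries.

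Other abundant miRNAs lost share. miR-222-3p, which with miR-221-3p represses the cell cycle inhibitor Cdkn1b, had 259432 in the Ago2 RNA-IP and 272905 in Input, a change in share of -1.09 percentage points. Its relative miR-221-3p, with the same seed and a mature sequence on the same strand of the X chromosome (chrX:19146307-19146329, against chrX:19146901-19146923 for miR-222-3p), gained 0.87 points with 775019 in the Ago2 RNA-IP and 513446 in Input. The log2 ratios were thus 0.59 for miR-221-3p and -0.07 for miR-222-3p, although both are cut from hairpins less than 1 kb apart. let-7g-5p (-0.40 points) and let-7d-5p (-0.31 points) also lost share, and let-7b-5p did so slightly (-0.19 points).

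**Figure D3:**
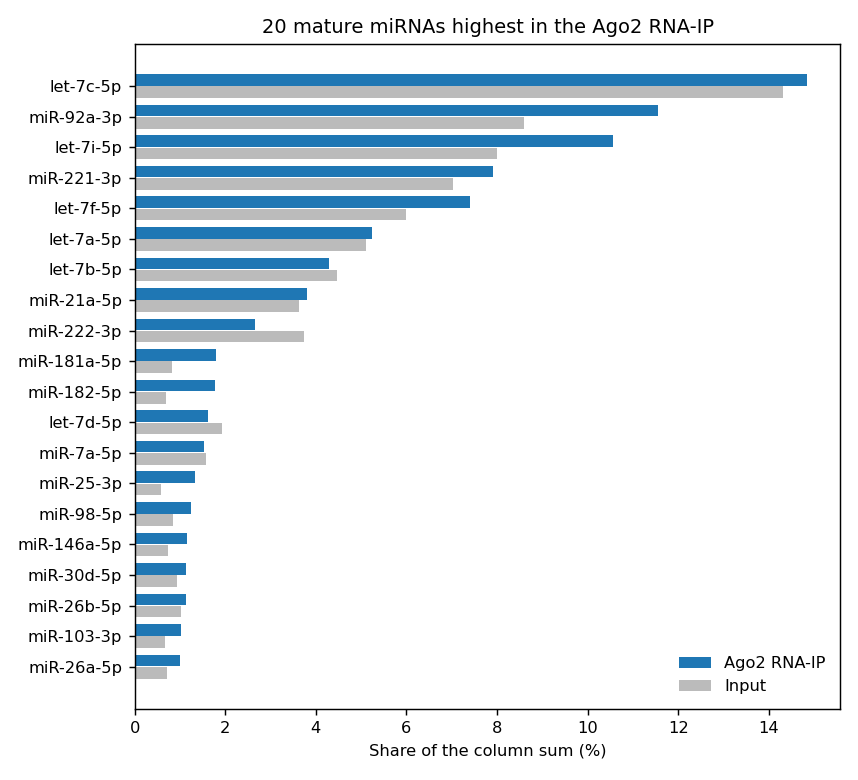
Share of the column sum in percent (horizontal) for the 20 mature miRNAs with the highest signal in the Ago2 RNA-IP, with the Ago2 RNA-IP bar above the Input bar for each. let-7c-5p leads with 14.8% in the Ago2 RNA-IP and 14.3% in Input, and the bars of miR-182-5p differ most in proportion, followed by those of miR-25-3p and miR-181a-5p.

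Members of a seed family differed in their pooled ratios. The let-7 family, with 10 measured members, made up 47.5% of the Ago2 RNA-IP's miRNA signal and 50.1% of that in Input, and none of its members was past 2-fold. Its log2 ratios ran between -0.11 for let-7g-5p and 0.98 for miR-98-5p. That range is far wider than the counting intervals of these abundant RNAs, which leave out the spread between libraries. The family of miR-25 and miR-92 held 13.2% in the Ago2 RNA-IP and 10.9% in Input, with log2 ratios of 0.85 for miR-92a-3p, 1.65 for miR-25-3p and 1.97 for miR-92b-3p. miR-92b-3p is made from its own locus at chr3:89227126-89227147 and had 571.887 in the Ago2 RNA-IP and 145.506 in Input. The miR-181 family held 2.78% in the Ago2 RNA-IP and 1.72% in Input and ran between 0.79 for miR-181d-5p and 2.56 for miR-181c-5p. miR-20a-5p had the lowest log2 ratio, -0.37, and miR-93-5p the highest, 0.44, in a family of 4 that includes both and held 0.598% in the Ago2 RNA-IP and 0.813% in Input. Of the 257 sequenced miRNAs at a mean of 20 or more, 27 had a measured near copy with at most 1 base changed or up to 2 bases of length apart, between which the authors' mapping could have split reads.

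The highest ratios belonged to miRNAs of modest signal. Among miRNAs with a mean of at least 100, miR-5121 was highest, with 378.171 in the Ago2 RNA-IP and 39.719 in Input, a log2 ratio of 3.25 (counting interval 2.96 to 3.55). Its sequence lies at chr7:45126925-45126945 on the minus strand within Rpl13a, the gene of a ribosomal protein. miR-181c-5p, in an intron of Nanos3 by GENCODE, had 683.353 in the Ago2 RNA-IP and 116.194 in Input. miR-101a-3p, which represses the histone methyltransferase Ezh2, had 5968.61 in the Ago2 RNA-IP and 1055.31 in Input (counting interval of the log2 ratio 2.44 to 2.56). Its signal placed it 67th in the Ago2 RNA-IP and 243rd in Input.

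miR-1843b-5p came next, followed by miR-5117-3p and miR-1843a-5p. miR-1843b-5p, in an intron of Cop1, had 2309.54 in the Ago2 RNA-IP and 474.69 in Input, and miR-1843a-5p, in an intron of Dcaf5, had 2327.91 in the Ago2 RNA-IP and 535.514 in Input. Since the printed sequence of miR-1843a-5p is that of miR-1843b-5p moved by 1 base, the signals of the pair may rest on the same reads and their ratios, 2.28 for miR-1843b-5p and 2.12 for miR-1843a-5p, are not separate observations. miR-5117-3p (log2 ratio 2.13), miR-582-3p in an intron of Pde4d (1.83) and miR-29b-3p, a repressor of collagen genes (1.71), completed the 10 highest together with miR-92b-3p and miR-182-5p.

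At the other end, 8 of the 10 lowest miRNAs carried high catalogue numbers and have no role given here. Such names were not confined to the low end, since miR-5121 and miR-5117-3p stood among the highest ratios. No cut-off was set for a high number, and the share of such names among all miRNAs was not counted. miR-2137, at chrX:72992113-72992133 in an intron of Zfp185, had 2.78752 in the Ago2 RNA-IP and 422.453 in Input, a log2 ratio of -7.24 (counting interval -8.12 to -6.37). miR-5115 had 56.2764 in the Ago2 RNA-IP and 2120.53 in Input (log2 ratio -5.24), and miR-5105 had 190.411 in the Ago2 RNA-IP and 6554.46 in Input (-5.11). miR-5099 was the most abundant of them, with 1548.9 in the Ago2 RNA-IP and 40756.8 in Input, and ranked 135th in the Ago2 RNA-IP and 26th in Input. Its share fell by 0.54 percentage points, the second largest loss of a miRNA. miR-6243 (-3.65), miR-5109 (-2.64), miR-3096a-5p (-2.55) and miR-3096b-5p (-2.48) belong to the same 10. The remaining 2 of the 10, miR-27a-5p and miR-92a-1-5p, are arms of well-known hairpins.

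For those hairpins both arms were set side by side. In 173 hairpins with 5p and 3p arms in the table and a joint mean of at least 20, the major arm, the one with more signal in the sum of both groups, had the higher log2 ratio in 119 (68.8%, Wilson 95% interval 61.5 to 75.2), with a median difference of 0.60. In the 94 hairpins whose arms both reached a mean of 20, it was higher in 72 (76.6%), with a median difference of 0.76. The counting intervals of the arms did not overlap in 61 of the 72, and in 17 of the 22 hairpins in which the minor arm was higher. These intervals leave out the spread between libraries, and how often those of unrelated miRNAs part was not counted. An arm shared by 2 hairpins, such as let-7c-5p, entered 2 of the 173 pairs, and the Wilson interval treats pairs as independent. With shared arms counted in each of their pairs, minor arms made up 0.567% of the summed signal in the Ago2 RNA-IP and 0.710% in Input. The major arm was chosen with the same 2 columns, but choosing it by Input alone or by the Ago2 RNA-IP alone left its share of higher arms within that interval.

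The miR-23a, miR-27a and miR-24-2 hairpins stand next to each other on chromosome 8, and miR-27a showed the widest gap of the 94 hairpins with both arms at a mean of 20 or more. miR-27a-3p, known as a regulator of lipid metabolism genes, had 2874.79 in the Ago2 RNA-IP and 1567.64 in Input (log2 ratio 0.87), while miR-27a-5p had 26.8624 in the Ago2 RNA-IP and 814.909 in Input (-4.92). miR-23a-3p had 2336.29 in the Ago2 RNA-IP and 1504.99 in Input (0.63), while miR-23a-5p had 7.84827 in the Ago2 RNA-IP and 119.434 in Input (-3.93). So both 3p arms stayed within 2-fold of Input while both 5p arms were far below it. The arms of the third hairpin did not part in this way, with 0.60 for miR-24-2-5p and 0.21 for miR-24-3p, which is also made from another locus.

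In miR-326, miR-92a-1 and miR-25 the 5p arm was also more than 2-fold below Input and the 3p arm was not. The same held for other hairpins, such as miR-29b with -1.85 for miR-29b-1-5p and 1.71 for miR-29b-3p. Minor arms at least 2-fold below Input were not confined to the 5p side. At a joint mean of at least 20, they occurred in 18 of 69 hairpins with a major 3p arm, beside 0 major arms so low. With a major 5p arm they occurred in 19 of 104, beside 5 major arms. Some of these minor arms rest on few reads, and 7 of them had 0 in the Ago2 RNA-IP. Where both arms reached a mean of 20, the minor arm was below Input in 17 of 94 hairpins and the major arm in 2. miR-326-3p, in an intron of Arrb1, had 331.89 in the Ago2 RNA-IP and 245.874 in Input, and miR-326-5p had 3.90651 in the Ago2 RNA-IP and 127.828 in Input, a difference between the arms of 5.46 on the log2 scale. miR-92a-1-5p had 142.006 in the Ago2 RNA-IP and 1530.05 in Input (log2 ratio -3.43), against 0.85 for the 3p arm. miR-25-3p, in Mcm7, had 130657 in the Ago2 RNA-IP and 41675 in Input, and miR-25-5p had 64.2268 in the Ago2 RNA-IP and 318.969 in Input, so the arms differed by 3.96.

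**Figure D4:**
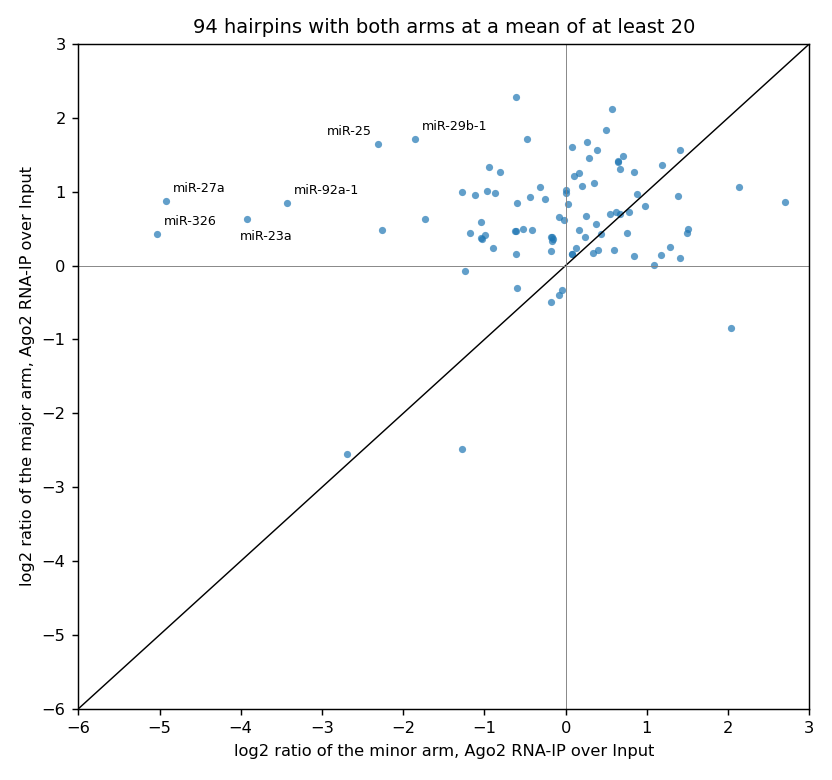
Log2 ratio of the major arm (vertical) against that of the minor arm (horizontal) for the 94 hairpins whose arms both had a mean signal of at least 20, each point being 1 hairpin. Points above the diagonal are the 72 hairpins whose major arm was further above Input, and the 6 hairpins with the widest gap are named, with miR-27a (5.80) the widest.

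In a few hairpins the leading arm was not the same in the 2 groups. Of 167 hairpins with enough signal in each group, 7 had another major arm in the Ago2 RNA-IP than in Input, 4 of them 3p in the Ago2 RNA-IP and 3 of them 5p. For miR-29b the 3p arm, known as a repressor of collagen genes, held 79.9% of the signal of the pair in the Ago2 RNA-IP and 25.1% in Input. miR-29b-3p comes from 2 loci and miR-29b-1-5p from only one of them. For miR-30b the 5p arm led in the Ago2 RNA-IP (935.44, with 376.574 for 3p) and the 3p arm in Input (912.493, with 468.513 for 5p). For miR-223, the miRNA of the myeloid lineage, 3p held 53.8% in the Ago2 RNA-IP and 35.4% in Input. The other 4, miR-195a, miR-331, miR-3074 and miR-5107, had signals under 60 in every arm and group.

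The first base of the miRNA was examined because Argonaute holds it in a pocket that in biochemical work favours U and A. The 257 miRNAs with a sequence and a mean of 20 or more had median log2 ratios of 0.64 with a first U (103 miRNAs), 0.50 with A (70), 0.24 with C (57) and 0.08 with G (27). On the scale of shares the medians for C and G lay below 0 (-0.19 and -0.35). Above and below Input were 28 and 3 of the miRNAs with U, and 6 and 8 of those with G. Among major arms alone the order was another, with medians of 0.84 for G (9 miRNAs), 0.71 for U (71), 0.59 for A (36) and 0.45 for C (24). Where exactly 1 arm of a hairpin began with U, that arm was the higher one in 28 of 35 hairpins with U on the major arm and in 7 of 14 with U on the minor arm. GC content and length went with the ratio only weakly (Spearman rho -0.15 and -0.07 over 257 miRNAs).

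Some miRNAs bypass a step of the usual maturation. miR-451a, which is cut by Ago2 itself instead of Dicer, was near the limit of detection, with 0.520789 in the Ago2 RNA-IP and 0 in Input. miR-320-3p, whose capped precursor leaves the nucleus without Drosha, had 49209.4 in the Ago2 RNA-IP and 22017 in Input (log2 ratio 1.16), while miR-484, made in a like way, had 5011.69 in the Ago2 RNA-IP and 3559.83 in Input (0.49). The mirtron miR-877-5p, released by splicing of an intron of Abcf1, had 240.195 in the Ago2 RNA-IP and 296.785 in Input (-0.31), and miR-1981-5p, in an intron of Marc2, had 4442.04 in the Ago2 RNA-IP and 2119.61 in Input (1.07). miR-1839-5p stood at 1.34 and its partner arm miR-1839-3p at -0.94. In all, 3 of the 6 members at a mean of 20 or more were above Input and 0 below, beside 23.8% above and 11.3% below among all miRNAs. On the scale of shares none of the 3 passed 2-fold (log2 0.64 to 0.91). miR-702-3p and miR-3102-3p were under a mean of 20, and miR-1224-5p was not listed.

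Of the macrophage and myeloid list, 4 of 8 members at a mean of 20 or more were above Input and 0 below, beside 23.8% above and 11.3% below among all miRNAs. miR-146a-5p, a brake on Toll-like receptor signalling, had 112469 in the Ago2 RNA-IP and 52710.4 in Input. Its relative miR-146b-5p had 97634.2 in the Ago2 RNA-IP and 38143.7 in Input. miR-142-3p, of the blood lineage, had 2207.84 in the Ago2 RNA-IP and 846.039 in Input, and miR-223-3p had 219.82 in the Ago2 RNA-IP and 103.35 in Input. On the scale of shares none of the 4 passed 2-fold (log2 0.66 to 0.96). miR-155-5p, which macrophages induce on activation, had 12038.6 in the Ago2 RNA-IP and 12866.2 in Input, and miR-21a-5p had 373508 in the Ago2 RNA-IP and 265164 in Input, so both stayed within 2-fold. miR-342-3p (-0.16) and miR-142-5p (0.94) did so too.

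The snoRNA class fell into parts with different ratios. Box C/D snoRNAs guide 2′-O-methylation of ribosomal RNA and box H/ACA snoRNAs guide pseudouridylation, while scaRNAs modify spliceosomal RNAs in Cajal bodies. Kinds were taken from the names, box C/D being names that begin with SNORD and box H/ACA those with SNORA. Box C/D RNAs under different names, such as U3, were thus counted among the other names. The 111 box C/D snoRNAs at a mean of 20 or more had a median log2 ratio of 0.50, with 44 above Input and 23 below. All 126 entries together summed to 107917 in the Ago2 RNA-IP, against 43423.9 in Input. On the scale of shares their median was 0.08, with 25 above and 31 below. All 126 entries together still held 1.10% of the signal in the Ago2 RNA-IP and 0.595% in Input. The 40 box H/ACA snoRNAs had a median of -2.09, with 3 above and 27 below, the 9 scaRNAs -2.61, with 1 above and 8 below, and the 21 spliceosomal U RNAs filed in this class -5.72, with all 21 below. The other 30 names had a median of -2.58, with 4 above and 20 below.

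3 box C/D snoRNAs led the class. SNORD101, in the ribosomal protein gene Rps12 (chr10:23786470-23786543, as the table gives it), had 14465.5 in the Ago2 RNA-IP and 1563.13 in Input, a log2 ratio of 3.21 (counting interval 3.16 to 3.26). It ranked 45th in the Ago2 RNA-IP and 182nd in Input. SNORD74, in Gas5, a host gene of several snoRNAs (chr1:161035394-161035473), had 13417.7 in the Ago2 RNA-IP and 1740.93 in Input (2.95). SNORD18, in an intron of Rpl4 (chr9:64175048-64175115), had 4477.6 in the Ago2 RNA-IP and 681.802 in Input (2.72). Their ratios lay among the highest of all RNAs with a mean of 100 or more, beside that of miR-5121.

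The lowest of the class at a mean of 100 or more were copies of U1, the RNA that recognises the start of introns. The U1 copy at chrX:116659074-116659220 had 57.3629 in the Ago2 RNA-IP and 4621.57 in Input (-6.33), and the 49 U1 entries together had 258.017 in the Ago2 RNA-IP and 16394.9 in Input. U3, a box C/D RNA counted here among the other names, processes ribosomal RNA instead of guiding methylation. It was below Input in 9 of 9 entries at a mean of 20 or more, with a median of -3.16.

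Annotated length went with the ratio. Over all 211 entries of the class, Spearman's rho between length and log2 ratio was -0.67, within box C/D snoRNAs -0.33 (111) and within box H/ACA snoRNAs -0.31 (40), given as descriptions of RNAs that share the same pooled libraries. Box C/D snoRNAs of up to 75 bases had a median of 0.96 (52 entries), those of 76 to 90 bases 0.20 (48) and the 3 over 120 bases -3.63. The table counts reads of a small RNA library, so a signal of a snoRNA can stand for fragments of it, and the length of the sequenced molecules was not analysed here.

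**Figure D5:**
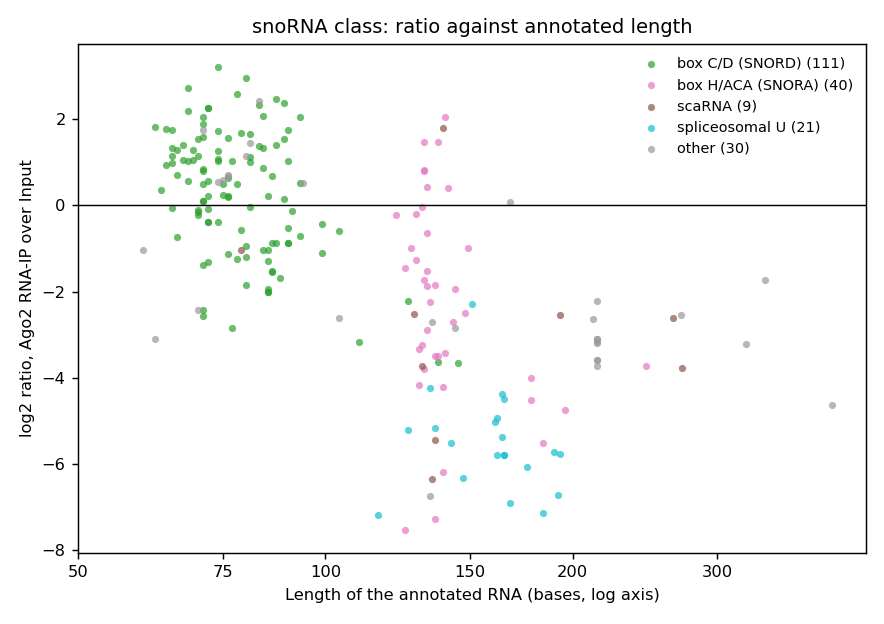
Log2 ratio of the Ago2 RNA-IP over Input (vertical) against the annotated length in bases (horizontal, log axis) for the 211 entries of the snoRNA class with a mean signal of at least 20, coloured by kind. Box C/D snoRNAs lie mostly at short lengths on both sides of 0 (median 0.50), and the 21 spliceosomal U RNAs all lie below it (median -5.72).

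Some snoRNA entries overlap annotated miRNA hairpins, and in 3 of them the signal in the Ago2 RNA-IP was nearly that of the miRNA. These entries were picked out after their values were seen. SCARNA3 (chr12:80391613-80391751), the only scaRNA above Input, had 2494.53 in the Ago2 RNA-IP and 720.383 in Input, and the arms of miR-1843a inside it summed to 2493.83 in the Ago2 RNA-IP, against 646.881 in Input. SNORA36 (chr1:185242907-185243038) had 1974.35 in the Ago2 RNA-IP and 715.097 in Input, and the arms of miR-664 inside it summed to 1974.97 in the Ago2 RNA-IP, against 716.647 in Input. The SNORD33 entry at chr7:45126864-45126947 had 387.805 in the Ago2 RNA-IP and 91.9964 in Input, and miR-5121 inside it had 378.171 in the Ago2 RNA-IP and 39.719 in Input. The same reads may thus be counted under both names. Without the 7 entries that hold a listed miRNA, 0 of 8 scaRNAs and 2 of 39 box H/ACA snoRNAs were above Input, while box C/D snoRNAs kept 43 of 109 above and a median of 0.50.

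tRNAs, which carry amino acids to the ribosome, were low in the Ago2 RNA-IP for nearly every amino acid. Of the 156 at a mean of 20 or more, 154 had a signal above 0 in the Ago2 RNA-IP, and their log2 ratios ran between -9.21 and 0.43. Among the 139 of them that matched a RefSeq tRNA gene by position, tRNA-Gly with the anticodon GCC was the most abundant, with totals of 11289.7 in the Ago2 RNA-IP and 126320 in Input over 7 genes. tRNA-Glu CUC had 2725.01 in the Ago2 RNA-IP and 68296.7 in Input over 3 genes, tRNA-Val CAC had 1194.95 in the Ago2 RNA-IP and 37114.7 in Input over 5, and tRNA-Pro AGG had 335.535 in the Ago2 RNA-IP and 17159.2 in Input over 5. Input thus held between 11.2 and 51.1 times the signal of the Ago2 RNA-IP for these abundant tRNAs.

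A few tRNAs were reduced far less. tRNA-Gln CUG had totals of 2771.72 in the Ago2 RNA-IP and 4115.09 in Input over 4 genes. Its genes differed, since 2 of the 4 were below Input, with log2 ratios of -3.49 and -1.04, and the other 2 were not. The gene at chr9:64738046-64738117 had 1321.93 in the Ago2 RNA-IP and 1645.78 in Input, and that at chr3:96399059-96399130 had 982.025 in the Ago2 RNA-IP and 1245.34 in Input. tRNA-Gly UCC had totals of 987.99 in the Ago2 RNA-IP and 1746.38 in Input over 3 genes, which had the same signal of 329.33 each in the Ago2 RNA-IP and so may count the same reads. The single tRNA-His AUG gene was the only tRNA above 0 on the log2 scale (0.43, counting interval 0.19 to 0.67), with 110.167 in the Ago2 RNA-IP and 81.6965 in Input. tRNA-His GUG, of the same amino acid, had 1549.02 in the Ago2 RNA-IP and 26535.4 in Input. Since gene copies of a tRNA are near-identical, the authors' mapping decides how their reads were shared out, and counts of tRNAs are counts of copies.

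rRNA entries were the most reduced. Of 82 entries for 5S rRNA, 56 were listed at 0 in the Ago2 RNA-IP and none in Input, and the 82 together had 150.556 in the Ago2 RNA-IP and 29948.6 in Input. The single 5.8S entry had 1065.51 in the Ago2 RNA-IP and 12337 in Input, a log2 ratio of -3.53, and so held most of the rRNA signal left in the Ago2 RNA-IP. The entry for the start of the small subunit rRNA lies on the mitochondrial genome (chrM:2-348). It had 164.779 in the Ago2 RNA-IP and 10514.1 in Input. The 5S entries at chrX:18323444-18323562 and chr10:78518623-78518738 were lowest among those above 0, each with 0.737205 in the Ago2 RNA-IP, against 1366.57 in Input for the entry on the X chromosome and 1151.72 in Input for the other.

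piRNAs are the guides of Piwi proteins in the germ line, and entries of that name outside it are often pieces of other RNAs. Here 1 entry, piR_000691, took 2181.37 in the Ago2 RNA-IP and 273238 in Input, and it ranked 116th in the Ago2 RNA-IP and 8th in Input. Without it the class held 41898.2 in the Ago2 RNA-IP, against 264607 in Input. piR_000935 was as strongly reduced, with 166.506 in the Ago2 RNA-IP and 24199.8 in Input (log2 ratio -7.18). On the other side, 6 entries were above Input, led by piR_022877 with 8492.14 in the Ago2 RNA-IP and 1121.77 in Input (2.92), piR_003399 with 672.41 in the Ago2 RNA-IP and 121.137 in Input (2.47) and piR_015668 with 5396.03 in the Ago2 RNA-IP and 1399.06 in Input (1.95). The table gives no sequence or position for these entries, so what they match was not analysed here.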

How the data were processed

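Small RNAs were measured by sequencing in 3 Ago2 RNA-IP and 3 Input libraries, grouped by their sample titles. Labels and methods name different library kits (NEBNext and CleanTag). According to the study's methods the omiRas webserver mapped and normalised the reads. LifeScope is named as well, while cutadapt and the build mm10 come from the submitters' processing notes. The authors deposited 1 normalised signal per RNA and group, their mean over 3 libraries, so no library depth is known. Their own log2 ratios, p-values and false discovery rates, and their lists of enriched RNAs, were not used. Reads of RNAs that overlap or share sequence may be counted under several names.

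Python 3.11.15, pandas 2.3.3, NumPy 2.4.6, SciPy 1.17.1 and matplotlib 3.10.9 were used. Ratios were computed without a pseudocount. An RNA at 0 in the Ago2 RNA-IP ranked lowest in medians. The counting interval took the variance of a mean as its value times the mean step. It was tested on data simulated with the same steps and equal rates in the 3 libraries. That checks the computation and not whether the interval holds for the real libraries. Kinds of snoRNA and spliceosomal RNAs were recognised by name, tRNAs by RefSeq position and hosts by GENCODE vM21. Named RNAs were the 10 highest miRNAs, the 10 highest and 10 lowest ratios at a mean of 100, the 5 largest gains and losses of share, the 3 highest and lowest of other classes, 6 hairpins and the lists. RNAs on chromosome 18 are given without sequence. The comparison, its lists and rules were chosen with earlier results of these data known. Alternatives changed the scale, pseudocount, level minimum, fold, copies and choice of major arm.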

Additional observations from a re-analysis of the deposited data

How the results depend on the processing

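No paired analysis was possible because each group is deposited as 1 mean of 3 libraries, and for the same reason no replicate was left out and the planned replicate block was not run. The limits are those of pooled values. No difference has an error between libraries, no RNA-IP with a control antibody was analysed here, and an RNA under a signal of 20 rests on few reads. Of 108 alternative values of the main results, 74 stayed close to the reported one, 32 moved further and 2 changed sign. Some of the 74 could not move, so their number does not measure robustness. A change of scale leaves differences between arms, first bases and snoRNA kinds as they were. Counting identical values once changed nothing for miRNAs, piRNA entries and rRNAs. For named RNAs there were 312 alternative ratios of 78 RNAs, and those of RNAs within 2-fold were not scored. None past 2-fold could change side, because both changes of scale shift log2 ratios by less than 1 and pseudocounts keep the sign. On the log2 scale the ratio of column sums is 0.43 and the median small RNA stands at -0.95. Of the RNAs past 2-fold, 9 fell below it in at least 1 alternative.

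As shares of the column sums, median log2 ratios were 0.067 for mature miRNAs, -1.30 for the snoRNA class and -5.06 for tRNAs. The medians for a first C (-0.19) and G (-0.35) then changed sign. Past 2-fold were 67 RNAs above Input, 31 of them miRNAs. With the median small RNA set to 0, the class medians were 1.44 for miRNAs, 0.074 for the snoRNA class, which changed sign, -2.56 for piRNA entries and -3.69 for tRNAs, with 303 RNAs above Input, and 209 miRNAs above and 22 below. Pseudocounts moved the rRNA median to -6.40 with 1 added and to -4.54 with 10 added, and with 10 added piRNA entries stood at -3.09 and tRNAs at -3.99.

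Without a level minimum, the snoRNA class stood at -3.19 and tRNAs at -4.98, and 349 RNAs were above Input and 1064 below, 162 and 106 of them miRNAs. The rRNA and spliceosomal U medians then fell on RNAs at 0 in the Ago2 RNA-IP and had no value. At a mean of 100 or more the snoRNA class changed sign to 0.51, and 252 RNAs were below Input, 17 of them miRNAs. At 4-fold, 27 RNAs were above Input, 10 of them miRNAs, and 22 miRNAs were below. Without the RNA highest in Input of each class, the log2 ratio of class shares was 0.18 for miRNAs (0.21 with it), 0.085 for the snoRNA class (0.12), -3.15 for piRNA entries (-4.04), -4.47 for tRNAs (-4.44) and -7.49 for rRNAs (-5.68). The cause of these shifts was not tested. With only RNAs at a mean of 20 or more, that of the snoRNA class was 0.14. The alternative without snoRNA entries that overlap miRNA hairpins was chosen after seeing the data.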
